A study of Mus musculus with 12 samples.

Results

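Car2, Car3 and Car4, which encode carbonic anhydrases, and Aqp1, which encodes the water channel aquaporin 1, were followed in mouse embryonic hearts, in RNA-seq of endothelial cells isolated by sorting. Each of the 4 symbols matched 1 Ensembl identifier among the 41214 genes of the deposited table, and all 4 genes were among the 15171 with enough counts to be tested. The genes were chosen from earlier results of the same libraries, on their levels by group and their fold changes between coronary and endocardial cells. These values are therefore given as a description, and tests are read as evidence only for other genes. Where a call of one of the 4 genes is given, it shows only how far that call depends on the settings.

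Carbonic anhydrases speed the reversible conversion of carbon dioxide and water to bicarbonate and a proton. Car2 encodes a fast cytosolic enzyme that is also abundant in red cells, and Car3 a slow cytosolic enzyme best known from skeletal muscle and fat. The Car4 product is tethered to the outer cell surface by a lipid anchor and is known from the luminal face of capillaries in heart, muscle and lung. Aquaporin 1 lets water cross the membranes of capillary endothelium and red cells.

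The 12 libraries hold 2 populations at 2 stages, labelled E13 and E17 and described as collected at E13.5 and E17.5, with 4 libraries per population at E13 and 2 at E17. Endocardial cells line the chambers, and coronary cells form vessels in the ventricular wall. All embryos carried Nes-gfp (Tg/0), in which nestin sequence drives a green fluorescent protein (GFP). E17 embryos also carried Nes-CreER (Tg/0) and R26 (tom/+), a tomato reporter that Cre switches on in cells in which the nestin sequence is active, and 0.1 ug of tamoxifen was given at E15.5. Sorted cells were alive, negative for Ter119 and CD45 and positive for CD31. At E13, low GFP with high endomucin defined the endocardial gate and GFP positivity the coronary gate. At E17 the endocardial gate is described as GFP-positive only, and of the 2 coronary gates described (an arterial and capillary one with tomato, and a venous one without) the labels do not say which gave the libraries. None of the 4 genes was used in a gate. Stage thus goes together with genotype, tamoxifen, batch and the gates described. Differences between E13 and E17 libraries given below cannot be told apart from effects of these.

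Totals ran from 14973633 to 27360653 expected counts per library. The endothelial genes Pecam1 and Cdh5 lay between 861 and 2141 and between 1473 and 3679 CPM (the usual counts relative to the library total, with totals scaled by TMM) over the 12 libraries. The summed level of 8 endocardial marker genes was 6034 to 6513 CPM in the endocardial libraries of E13 and 7395 to 7621 CPM in those of E17, against 1666 to 2164 CPM in E13 coronary and 405 to 421 CPM in E17 coronary libraries. Nothing in the labels says whether libraries of a group came from separate litters, so errors here measure the spread between these libraries. In sorted bulk RNA, fewer cells that express a gene and less of its RNA per cell cannot be told apart.

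Car4 was low in all E13 libraries and parted the populations widely at E17. On GRCm38 the gene lies at chr11:84957786-84966044 on the plus strand. Its level in the 4 E13 endocardial libraries was 0.601, 0.913, 0.45 and 0.951 CPM, and in the 4 E13 coronary libraries 4.44, 4.68, 3.43 and 5.55 CPM. The E17 endocardial libraries held 0.0546 and 0.13 CPM, which are 1 and 2 counts, and the E17 coronary libraries 24.2 and 36.5 CPM. No library of a group overlapped any library of another group, in the order E17 coronary, E13 coronary, E13 endocardial, E17 endocardial. The log2 fold change of coronary over endocardial libraries was 2.64 ± 0.25 (SE) at E13 and 8.31 ± 0.47 at E17. With 3 counts in the E17 endocardial libraries together and 962 in the coronary ones, the ratio of pooled CPM at E17 was 348, with a 95% exact interval from 119 to 1692 that covers counting error only.

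Between the E13 and E17 libraries, Car4 differed in opposite directions in the 2 populations. It was higher at E17 in coronary libraries by 2.75 ± 0.23 on the log2 scale and lower at E17 in endocardial libraries by a log2 change of -2.92 ± 0.61. The endocardial difference rests on 60 counts at E13 and 3 at E17. The pooled ratio of E13 over E17 was 8.31, with an exact interval from 2.71 to 41.4. Without E17 endocardial replicate 1 the log2 change was -2.41 ± 0.79, and it no longer passed edgeR's threshold.

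Aqp1 was the most abundant of the 4 genes in every library, also per kilobase of exon, and was higher in coronary than in endocardial libraries at both stages. It lies at chr6:55336432-55348555 on the plus strand. E13 endocardial libraries held 62.7, 49.4, 52.7 and 63.7 CPM, and E13 coronary libraries 625, 650, 416 and 603 CPM. At E17 the endocardial libraries held 180 and 133 CPM and the coronary libraries 921 and 1173 CPM. Every group stood clear of the next, with the E17 libraries above the E13 libraries of the same population. The coronary excess was 3.33 ± 0.16 on the log2 scale at E13 and 2.74 ± 0.22 at E17. The rise from E13 to E17 was 1.46 ± 0.18 in endocardial and 0.87 ± 0.17 in coronary libraries. Its coronary excess was thus smaller at E17 by a log2 difference of -0.59 ± 0.26, which did not pass edgeR's threshold. It did pass without E13 coronary replicate 3 (-0.72 ± 0.20) and with library totals in place of TMM (-0.69 ± 0.24). Nothing is read from these calls, since Aqp1 was chosen on its levels in these libraries.

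**Figure D1:**
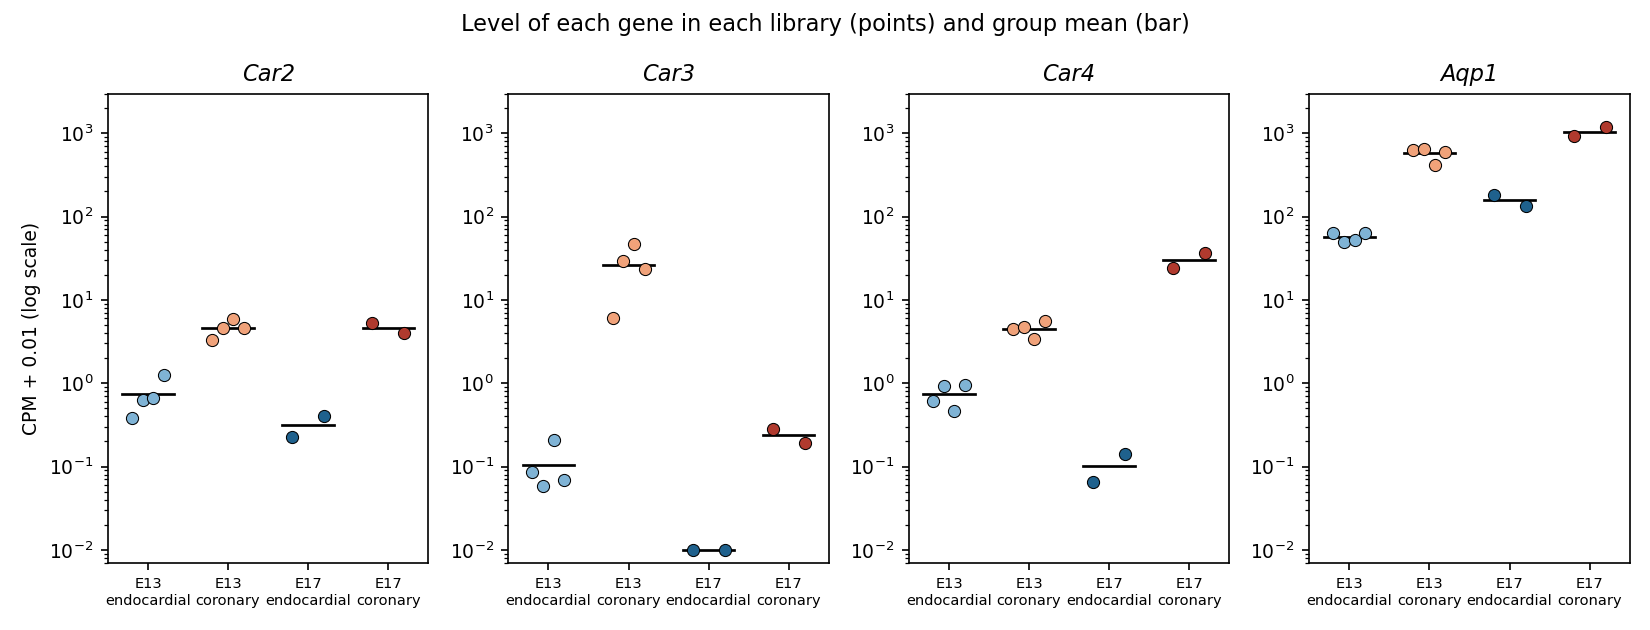
Level of Car2, Car3, Car4 and Aqp1 in each library as CPM plus 0.01 on a log axis. Points are libraries (4 per group at E13, 2 at E17) and bars are group means. Car4 and Aqp1 are highest in the E17 coronary libraries, at 24.2 and 36.5 CPM and at 921 and 1173 CPM, whereas Car3 is high only in the 4 E13 coronary libraries, from 6.06 to 46.3 CPM.

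Car4 and Aqp1 were both highest in E17 coronary libraries. The 250 bases before their RefSeq starts are shown because only these 2 of the 4 genes had a promoter sequence to hand. Both come from RefSeq on GRCm38.p6, 5′ to 3′ on the plus strand, for Car4 chr11:84957504-84957753 and for Aqp1 chr6:55336049-55336298. The table of promoter sequences matched 2 of the 4 genes. Capitals mark matches, on either strand, to the motifs searched. These were the TATA box as TATAAA, the usual GC box for SP1 as GGGCGG, the core of sites for ETS factors as CCGGAA, the core of the hypoxia response element as ACGTG, the core for GATA factors as AGATAA, the homeodomain core as TAATTA, and the box for Krueppel-like factors as CACCC.
Car4: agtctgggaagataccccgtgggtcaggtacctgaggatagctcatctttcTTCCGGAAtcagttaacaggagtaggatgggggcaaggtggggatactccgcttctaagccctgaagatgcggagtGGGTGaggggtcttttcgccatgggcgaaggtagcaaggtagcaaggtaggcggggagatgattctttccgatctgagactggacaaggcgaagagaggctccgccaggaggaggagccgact
Aqp1: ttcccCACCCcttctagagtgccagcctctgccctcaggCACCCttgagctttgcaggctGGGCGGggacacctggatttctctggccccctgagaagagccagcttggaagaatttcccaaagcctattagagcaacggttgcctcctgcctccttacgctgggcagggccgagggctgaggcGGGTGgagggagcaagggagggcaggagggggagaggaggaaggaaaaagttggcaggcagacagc

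In the Car4 window, CCGGAA matched on both strands as overlapping sites, from 199 to 194 and from 197 to 192 bases before the start. CACCC matched once in the Car4 window and at 3 places in the Aqp1 window, and GGGCGG matched once, in the Aqp1 window. Of all 32851 promoter windows of the same length, 12% held CCGGAA, 52.0% CACCC and 32.7% GGGCGG. The TATA box, the hypoxia element core and the GATA and homeodomain motifs had no match in these windows and are held by 12.4%, 16.6%, 9.99% and 4.84% of all windows. These are matches of letters, not measured binding.

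Car2 was low throughout and higher in coronary libraries at both stages. The gene lies at chr3:14886273-14900770 on the plus strand. It stood at 0.376, 0.624, 0.65 and 1.25 CPM in E13 endocardial libraries and at 3.25, 4.59, 5.85 and 4.59 CPM in E13 coronary libraries. The E17 endocardial libraries held 0.218 and 0.389 CPM and the E17 coronary libraries 5.21 and 3.95 CPM. All 6 coronary libraries lay above all 6 endocardial libraries, while the stages overlapped within each population. The coronary excess was 2.69 ± 0.32 on the log2 scale at E13 and 3.91 ± 0.53 at E17, with 10 counts in the E17 endocardial libraries together and a pooled ratio at E17 of 15.4 (95% exact interval 8.15 to 32.9). Between stages the log2 change was 0.00 ± 0.34 in coronary libraries, beside 2.75 ± 0.23 for Car4 in the same libraries. In endocardial libraries it was -1.22 ± 0.53, which among all settings tried passed edgeR's threshold only without E13 endocardial replicate 1 (-1.45 ± 0.49).

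Car3 was high in 1 group only, the E13 coronary libraries. It lies at chr3:14863512-14872523 on the plus strand. The E13 coronary libraries held 6.06, 28.9, 46.3 and 23.3 CPM, and the E13 endocardial libraries 0.0752, 0.048, 0.2 and 0.0595 CPM, together 8 counts. Both E17 endocardial libraries had 0 counts, and the E17 coronary libraries had 0.274 and 0.18 CPM, which are 4 and 3 counts. The E13 coronary libraries lay far above the rest, although they differed 7.65-fold among themselves, against 1.56-fold to 1.8-fold for the other 3 genes. Car3 was higher in coronary than in endocardial libraries at E13 by 8.01 ± 0.75 on the log2 scale, and the pooled ratio was 303 (95% exact interval 153 to 703). In coronary libraries the change from E13 to E17 was -6.83 ± 0.95, and the pooled ratio of E13 over E17 was 132 (95% exact interval 64.2 to 330). Both intervals cover counting error only, not the spread between libraries.

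At E17 Car3 was near the limit of detection. With 7 counts in the E17 coronary libraries and 0 in the E17 endocardial ones, the 95% exact interval of the pooled ratio starts at 1.57 and has no upper limit. The fitted difference did not pass edgeR's threshold, but passed with the batch as a block, with DESeq2 and without E13 coronary replicate 1. In endocardial libraries, with 8 counts at E13 and 0 at E17, the exact interval of E17 over E13 runs from 0 to 1.41, so that a difference between stages was not detectable at this depth.

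The 4 genes split within the E13 coronary group. Car3 and Car2 were lowest in replicate 1 and highest in replicate 3, with Car3 2.11 below and 0.83 above the group mean on the log2 scale and Car2 0.49 below and 0.36 above it. Aqp1 and Car4 were lowest in replicate 3, by 0.46 and 0.40, but Aqp1 was highest in replicate 2 and Car4 in replicate 4. The orders of Car2 and Car4 rest on 60 to 116 and on 68 to 108 counts per library. Summed levels of marker lists for other cell types moved over the same libraries. The 9 fibroblast genes summed to 2633, 5228, 6990 and 4848 CPM in replicates 1 to 4, the same order of libraries as Car3, and all 9 were lowest in replicate 1 and highest in replicate 3. The 9 mural genes summed to 377, 596, 733 and 528 CPM, and 6 of the 8 at 1 CPM or more were lowest in replicate 1 and highest in replicate 3, while Kcnj8 and Abcc9 were highest in replicate 1. Of the 7 glial and neural crest genes only Erbb3 followed that order at 1 CPM or more (6.76, 19.6, 27 and 18.6 CPM), and the other 6 together had 3.46, 3.29, 4.08 and 2.83 CPM. The endothelial list was highest in replicate 1 (7615 CPM) and lowest in replicate 3 (5571 CPM), as was the list of other heart capillary genes (3283 and 1928 CPM). The part of these lists in the Car3 and Car2 levels was not tested.

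**Figure D2:**
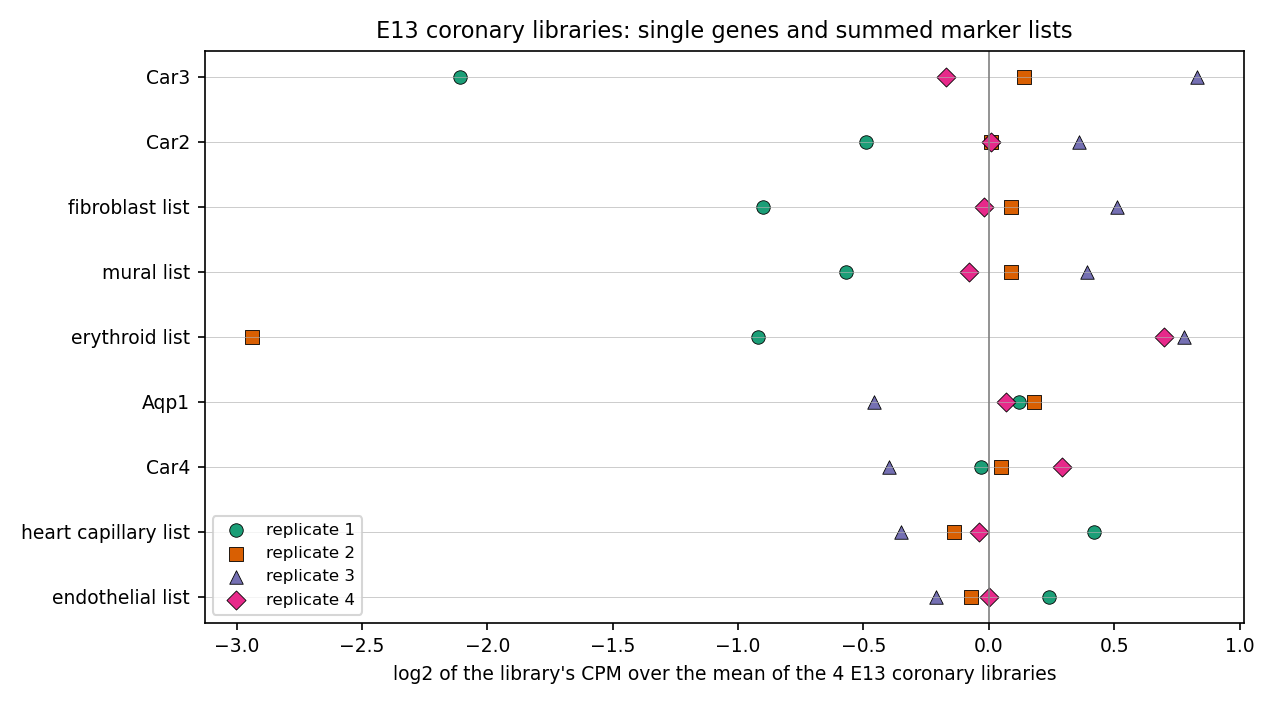
Level in each of the 4 E13 coronary libraries over their mean, on the log2 scale, for the 4 genes and for summed marker lists. Each symbol is a library. Replicate 1 is lowest and replicate 3 highest for Car3 (-2.11 and 0.83), Car2 and the fibroblast and mural lists, whereas replicate 3 is lowest for Aqp1, Car4, the capillary list and the endothelial list.

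Other groups give values of the fibroblast list beside Car3. In the E13 comparison 8 of its 9 genes were higher in coronary libraries (30.1% of all tested genes). At E17 4 were higher (26.5%) and 2 lower (26.1%). Its sum ran from 1822 to 2053 CPM in E13 endocardial libraries and from 2211 to 2453 CPM in E17 endocardial ones. Col3a1 (1054 to 1307 CPM) and Postn (571 to 738 CPM) carried the E13 endocardial sums, and no other gene of the list exceeded 115 CPM there. In E17 endocardial libraries Postn (1144 and 1033 CPM), Col3a1 (539 and 451 CPM) and Col1a2 (406 and 397 CPM) were the highest. E17 coronary replicate 1 had 4812 CPM of it beside 4848 CPM in E13 coronary replicate 4, while Car3 stood at 0.274 and 23.3 CPM. The members of the list were not alike in these libraries. Col1a1 (1010 and 687 CPM), Col1a2 (749 and 490), Dcn (77.4 and 39.3), Tcf21 (19.7 and 7.15) and Postn (1041 and 1006) were higher in the former, and Col3a1 (1829 and 2338), Pdgfra (47.3 and 147), Lum (28.9 and 84.7) and Mfap4 (10.7 and 49) in the latter. Without E13 coronary replicate 1 the Car3 difference at E13 was 8.37 ± 0.37, and over all alternatives it ran from 7.60 to 8.57.

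Markers of muscle, fat and blood were read because these tissues are rich in some of the 4 proteins. The skeletal muscle genes Myod1, Myog, Myf6 and Pax7 had 0 counts in all 12 libraries, and the 9 muscle genes summed to 2.2 to 4.06 CPM in E13 libraries of both populations. At E17, where Car3 was near 0, they summed to 12.9 to 17.6 CPM, of which Ckm, shared with heart muscle, made at least 11.7 CPM. Plin1, Cidec and Lep, markers of fat cells, also had 0 counts in all 12, and the 6 fat cell genes summed to at most 0.45 CPM. Car1, a carbonic anhydrase gene of mature red cells, had 0 counts in all 12 libraries, although globin transcripts were present. The 16 erythroid genes in the table summed to 22.5 to 500 CPM in E13 endocardial, 60.1 to 795 CPM in E13 coronary, 80.6 to 473 CPM in E17 endocardial and 395 to 534 CPM in E17 coronary libraries. Of 10 erythroid genes tested, 1 passed as higher in coronary libraries at E13, where 30.1% of all tested genes did. The median log2 difference over the 10 was 1.06 at E13 and 0.77 at E17. Among E13 coronary libraries Aqp1 was highest, 650 CPM, in replicate 2, where the erythroid sum was lowest at 60.1 CPM. It was lowest, 416 CPM, in replicate 3, where that sum was highest at 795 CPM. In E13 endocardial libraries Aqp1 and that sum peaked in replicate 4 (63.7 and 500 CPM) and were lowest in replicate 2 (49.4 and 22.5 CPM). They also went together in E17 endocardial libraries, with 180 CPM of Aqp1 beside 473 CPM and 133 CPM beside 80.6 CPM. In E17 coronary libraries they went opposite ways, with 921 CPM of Aqp1 beside 534 CPM and 1173 CPM beside 395 CPM. Car2 was highest with the sum in E13 endocardial (1.25 CPM), E13 coronary (5.85 CPM) and E17 coronary libraries (5.21 CPM beside 534 CPM). In E17 endocardial libraries Car2 went the other way, with 0.218 CPM beside 473 CPM and 0.389 CPM beside 80.6 CPM. The part of red cells in these levels was not tested.

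Macrophage and leukocyte genes summed to 46.6 to 70.5 CPM in coronary and 20.1 to 27.1 CPM in endocardial libraries at E13, and to 70.9 to 74.3 CPM and 38.7 to 41.2 CPM at E17, but Mrc1 carried these sums. Without it the other 9 genes had 9.13 to 12 CPM in coronary and 8.1 to 12.3 CPM in endocardial libraries at E13, and 3.95 to 4.94 CPM against 15 to 25.3 CPM at E17. Of the 7 tested, 2 were higher in coronary libraries at E13, and 1 was higher and 2 lower at E17. Their median log2 differences were 0.05 and -2.41. Of all tested genes 30.1% were higher and 29.9% lower at E13, and 26.5% and 26.1% at E17. Platelet and megakaryocyte genes, of which 2 of 5 tested were lower in coronary libraries at E13, had 14.3 to 20.1 CPM in coronary and 30.3 to 35.1 CPM in endocardial libraries at E13. Epicardial genes at E13 summed to 81.5 to 95.3 CPM in coronary and 17.1 to 21.3 CPM in endocardial libraries, with 6 of 8 higher and 1 lower in coronary libraries, and Wt1 alone made 39.8 to 76.9 CPM of the coronary sums. The 12 cardiomyocyte genes summed to 190 to 387 CPM and 281 to 431 CPM in these groups, with 1 of the 12 lower in coronary libraries. The part of these cells in the levels of the 4 genes was not tested.

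By edgeR with its quasi-likelihood test and p-values adjusted over all genes, all 4 genes passed as higher in coronary libraries at E13, where 30.1% of tested genes did. At E17 3 of the 4 passed as higher, all but Car3, against 26.5% of tested genes. Between stages, Aqp1 passed as higher and Car4 as lower in endocardial libraries, where 16.2% and 15.6% of tested genes did. Aqp1 and Car4 passed as higher and Car3 as lower in coronary libraries, against 24.6% and 25.6%. Only Car4 of the 4 genes passed the test that the population difference changed between stages, by 5.67 ± 0.60 towards coronary cells, where 16.2% of tested genes passed in that direction and 16.5% in the other. The libraries of the groups compared did not overlap, in the coronary direction, for all 4 genes at both stages, against 27.6% of tested genes at E13 and 37.3% at E17. Between stages the same held for Aqp1 upwards (26.7% of tested genes) and for Car3 and Car4 downwards (25.9%) in endocardial libraries, and for Aqp1 and Car4 upwards (29.7%) and Car3 downwards (30.8%) in coronary libraries. Since the genes were picked with these differences known, nothing is read from these counts.

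Car3 and Car2 are neighbours on chromosome 3, with 13749 bases and no gene of the table between them, in a cluster that runs from Car13 through Car1 and spans 259044 bases. Their levels parted all the same, since Car2 had 4.58 ± 0.89 CPM (SD, n = 2) and Car3 0.227 ± 0.0669 CPM in the E17 coronary libraries. Car13, which encodes another cytosolic enzyme, had 5.18 ± 0.907 and 5.74 ± 0.606 CPM (n = 4 each) in E13 endocardial and coronary libraries, a log2 difference of 0.14 ± 0.16. At E17 it was lower in coronary libraries by -0.94 ± 0.24 (edgeR adjusted p = 0.00505), a call lost without E17 endocardial replicate 2 or E17 coronary replicate 2 (adjusted p = 0.0531 and 0.056).

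The other 13 carbonic anhydrase genes give the background of the family. Car1, Car5a, Car6 and Car10 were too low to be tested. Of the 9 tested at E13, 4 were higher in coronary libraries (Car7, Car11, Car14 and Car5b), 1 was lower (Car8) and 4 did not pass. Of all tested genes 30.1% were higher and 29.9% lower. At E17 only Car7 was higher, and Car8, Car12, Car13 and Car15 were lower, against 26.5% and 26.1% of all tested genes. Over the 9 genes the median log2 difference was 0.14 at E13 and -0.94 at E17, against -0.02 and -0.01 over all genes tested.

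Car8, whose product resembles the enzymes but lacks the zinc-binding residues needed for catalysis, was the most abundant family member in endocardial libraries. Its level was 107 ± 12.4 CPM for endocardial and 44.1 ± 3.89 CPM for coronary libraries of E13, and 227 ± 1.93 and 89.1 ± 0.306 CPM for those of E17. It was lower in coronary libraries, by -1.27 ± 0.08 at E13 and by -1.35 ± 0.12 at E17, with adjusted p of 9.47e-08 and 1.16e-06 from edgeR. It rose from E13 to E17 by 1.09 ± 0.09 in endocardial and 1.01 ± 0.10 in coronary libraries. Per kilobase of exon, Car8 stood at 58.9 CPM in E17 endocardial libraries, beside 0.125, 0 and 0.0468 CPM for Car2, Car3 and Car4. In the E17 coronary libraries Car8 had 23.1 CPM per kilobase and Car4 15.4, and Aqp1 had 399.

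Car7, which encodes a cytosolic enzyme known mainly from neurons, followed the direction of Car4 in coronary libraries. It had 0.201 ± 0.11 CPM in E13 endocardial, 1.95 ± 0.661 CPM in E13 coronary, 0.587 ± 0.0964 CPM in E17 endocardial and 14.4 ± 0.158 CPM in E17 coronary libraries. The coronary excess was 3.23 ± 0.36 in E13 and 4.60 ± 0.43 in E17 libraries (edgeR adjusted p = 8.03e-06 and 2.52e-06). It rose in coronary libraries from E13 to E17 by 2.89 ± 0.29 (edgeR adjusted p = 6.75e-06). Its rise in endocardial libraries, 1.52 ± 0.49, lost its call without E13 endocardial replicate 2 or 3 or either E17 endocardial library (edgeR adjusted p from 0.051 to 0.202).

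Of the membrane-bound enzymes, Car9, Car12 and Car14 fell in coronary libraries from E13 to E17, unlike Car4. Car12 went from 1.53 ± 0.138 to 0.458 ± 0.225 CPM (log2 change -1.74 ± 0.47, edgeR adjusted p = 0.00827) and Car14 from 2.59 ± 0.57 to 0.749 ± 0.381 CPM (-1.77 ± 0.45, edgeR adjusted p = 0.00558). The Car12 call was lost without E17 coronary replicate 2 (adjusted p = 0.109) and the Car14 call without E17 coronary replicate 1 (adjusted p = 0.0665). Car9, a transmembrane enzyme induced by low oxygen, had 1.63 ± 0.128 and 1.61 ± 0.378 CPM in E13 endocardial and coronary libraries and 0.984 ± 0.383 and 0.762 ± 0.108 CPM at E17. Its population difference did not pass at either stage. Its fall in coronary libraries passed, but lost its call without E17 coronary replicate 1 (log2 change -0.93) or 2 (-1.22). Car15, on a lipid anchor as Car4 is, was lower in coronary libraries at E17 by -1.43 ± 0.42, and lost that call without replicate 1 of either E17 group (edgeR adjusted p = 0.0523 and 0.103).

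**Figure D3:**
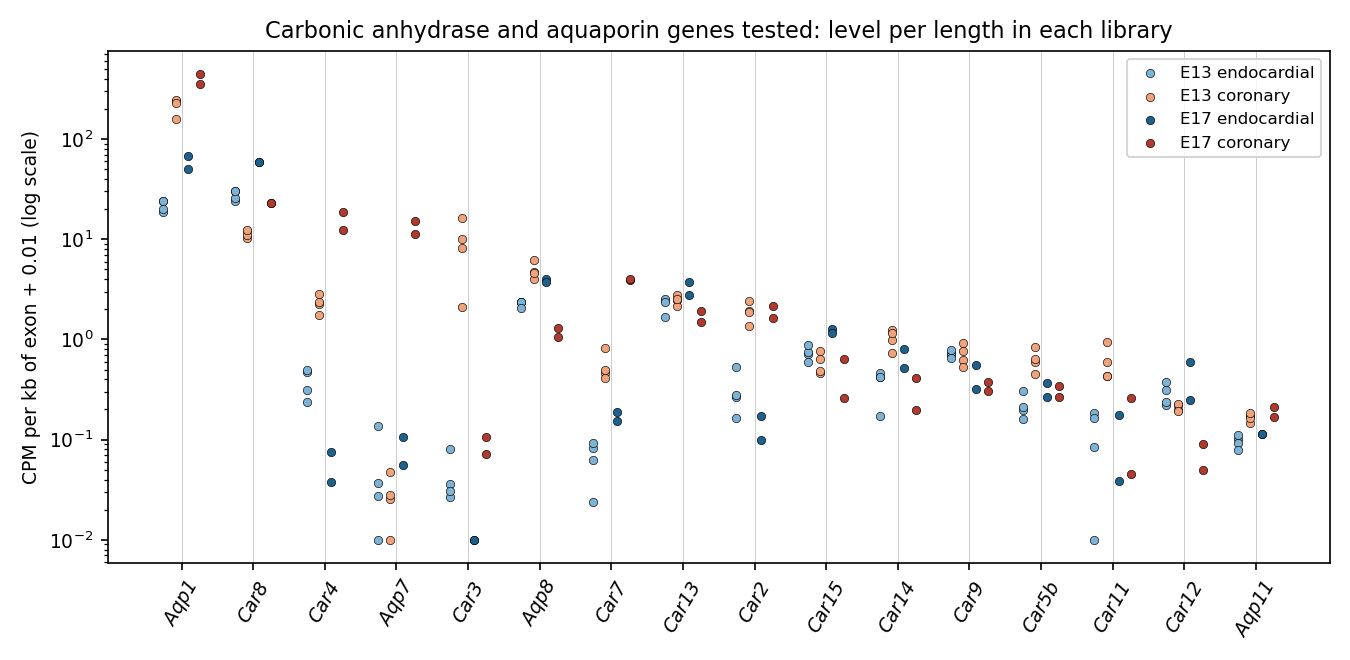
Level of each tested carbonic anhydrase and aquaporin gene in each library, as CPM per kilobase of exon plus 0.01 on a log axis, ordered by the highest group mean. Colours mark the 4 groups and points are libraries. Aqp1 stands highest, at 399 in E17 coronary libraries, followed by Car8, which is higher in the endocardial groups (58.9 at E17).

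The other aquaporins behaved in 3 ways. Aqp7, which encodes a glycerol channel, had 4 counts in the E13 coronary libraries together and 37.7 ± 7.89 CPM in the E17 coronary libraries, and was higher in coronary libraries at E17 by 7.47 ± 0.57 (edgeR adjusted p = 4.56e-07), with -1.02 ± 0.94 at E13. Aqp8, a channel for water and small solutes, was higher in coronary libraries at E13 (3.6 ± 0.221 against 7.68 ± 1.44 CPM, log2 1.09 ± 0.14) and lower at E17 (6.09 ± 0.267 against 1.84 ± 0.276 CPM, log2 -1.72 ± 0.22), with edgeR adjusted p of 3.88e-05 and 4.04e-05. Aqp11, an intracellular aquaporin, had a coronary excess of 0.86 ± 0.22 at E13 (edgeR adjusted p = 0.00452). Its difference at E17, 0.81 ± 0.31 (edgeR adjusted p = 0.0456), lost its call with the batch as a block (adjusted p = 0.122), with DESeq2 (adjusted p = 0.112) and without any of 10 libraries, at most 0.226 without E17 coronary replicate 2. The other 8 aquaporin genes were too low to be tested, with at most 0.427 CPM in a library.

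**Figure D4:**
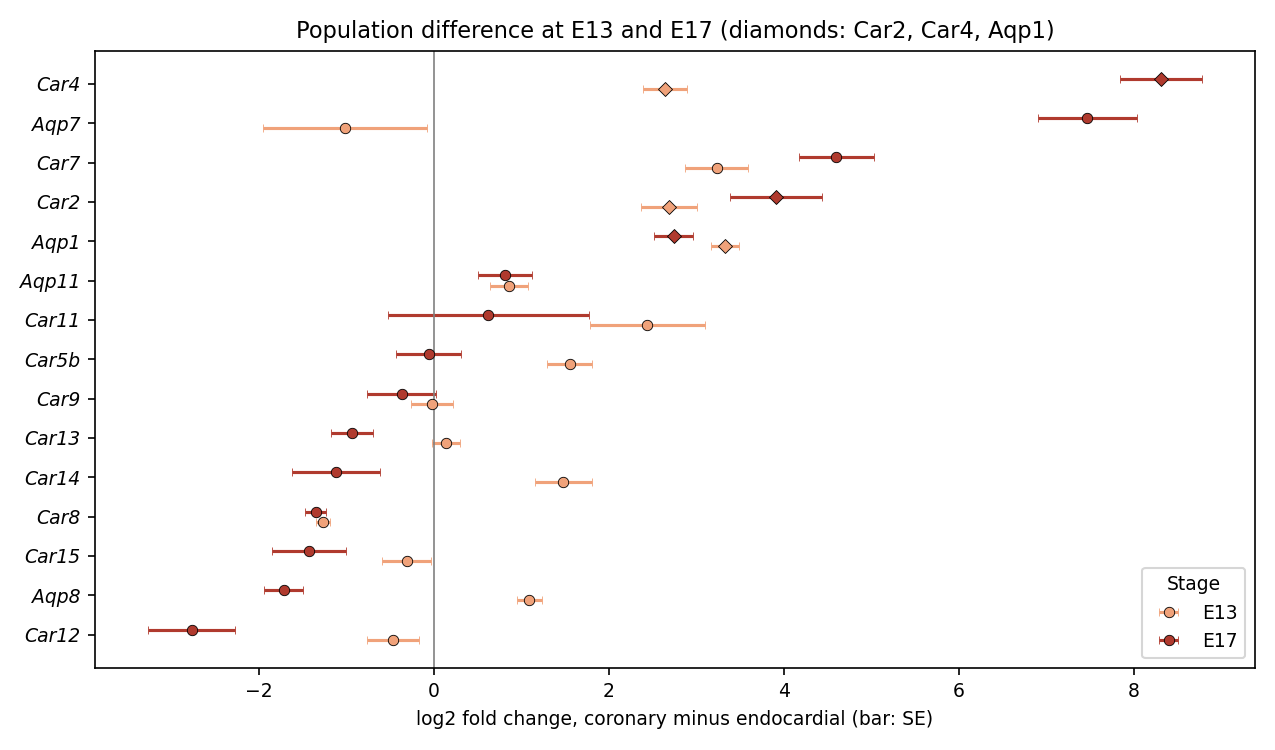
Coronary minus endocardial log2 fold change with its SE at E13 (light) and E17 (dark) for the tested carbonic anhydrase and aquaporin genes, without Car3, which had 0 counts in E17 endocardial libraries. Diamonds are Car2, Car4 and Aqp1. Car4 moves from 2.64 to 8.31 and Aqp8 crosses 0, from 1.09 to -1.72.

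Transporters that carry bicarbonate, protons or lactate were read as the rest of the pathway. Of 14 bicarbonate and anion exchanger genes tested, 4 were higher and 3 lower in coronary libraries at E13, and 1 was higher and 7 lower at E17. The 7 became 2 and 4 without E17 endocardial replicate 1 or 2, 4 and 1 without E17 coronary replicate 1 or 2, and 4 when only the groups compared were fitted. Of 11 proton and lactate transporter genes, 3 were higher and 6 lower at E13, and 3 were higher and 5 lower at E17. The Rh gas channel genes in the table were too low to be tested. With the 2 families and without Car2, Car3, Car4 and Aqp1, 13 of 37 tested genes were higher and 10 lower at E13, and 7 were higher and 17 lower at E17. Beside all these counts, 30.1% of all tested genes were higher and 29.9% lower at E13, and 26.5% and 26.1% at E17. The E13 counts of the exchangers and of the 37 genes lie near these shares, and nothing is read from them.

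Slc16a3, which encodes a lactate and proton exporter, had the largest coronary excess at E13 among these transporters at 10 CPM or more. It then had 8.68 ± 1.95 CPM in endocardial against 122 ± 14.8 CPM in coronary libraries (log2 3.81 ± 0.17, edgeR adjusted p = 6.59e-09), and 11 ± 3.01 and 48.7 ± 12.5 CPM at E17 (2.15 ± 0.24, edgeR adjusted p = 1.24e-05). Slc16a1, a related lactate transporter gene, had a coronary excess as well, from 12.9 ± 1.2 to 29.5 ± 2.44 CPM at E13 and a log2 difference of 0.67 ± 0.13 at E17 (edgeR adjusted p = 2.86e-07 and 0.00109). Emb, which encodes a partner protein of lactate transporters, was higher in coronary libraries at E13 (0.64 ± 0.12) and lower at E17 (-2.11 ± 0.21, edgeR adjusted p = 4.01e-06). Slc9a5, a sodium and proton exchanger gene, crossed the other way, from -0.36 ± 0.10 to 1.05 ± 0.15. Bsg, on the same list as Emb, had 314 ± 5.47 and 292 ± 8.54 CPM in E13 endocardial and coronary libraries. At E17 its levels were 361 ± 16.2 and 251 ± 20 CPM.

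Slc4a4, which encodes a sodium bicarbonate cotransporter, was higher in coronary libraries at E13 (1.8 ± 0.53 against 8.48 ± 2.35 CPM, log2 2.24 ± 0.30, edgeR adjusted p = 4.1e-05). At E17 it had 1.63 ± 0.0117 and 1.39 ± 0.947 CPM (-0.25 ± 0.48), so that its coronary level fell from E13 to E17 by 2.63 on the log2 scale (edgeR adjusted p = 0.000233). Slc4a8, a bicarbonate exchanger gene, kept a coronary excess, 2.99 ± 0.42 at E13 and 3.84 ± 0.76 at E17, with 3 counts in the E17 endocardial libraries together. Slc26a10, of the anion exchanger family, was lower in coronary libraries at E13 (152 ± 12.1 against 29.3 ± 3.96 CPM, log2 -2.37 ± 0.13, edgeR adjusted p = 2.26e-08), and at E17 lay at 106 ± 5.28 and 127 ± 36.6 CPM (0.26 ± 0.17). Without E17 coronary replicate 1 the E17 difference passed at 0.54 (edgeR adjusted p = 0.0125).

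Hypoxia response genes, a list that holds Car9 and Car12, were higher in coronary libraries in 12 of 14 cases at E13, all but these 2. At E17 10 of 14 were higher, with Car12 lower. The 14 other heart capillary genes had 8 higher and 3 lower at E13 and 13 higher and 1 lower at E17, with medians of 1.74 and 5.19. Of all tested genes 30.1% were higher and 29.9% lower at E13, and 26.5% and 26.1% at E17. All 14 capillary genes rose in coronary libraries from E13 to E17, with a median of 2.68, where 24.6% of all tested genes did. In that comparison Car4 changed by 2.75 ± 0.23, Aqp1 by 0.87 ± 0.17, Car2 by 0.00 ± 0.34 and Car3 by -6.83 ± 0.95.

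Genes with a like course over the 12 libraries were ranked among 9896 genes by the root mean square difference of log2(CPM + 1), each gene centred on its own mean. Libraries of a group share the group's level, so this is a description. The added 1 flattens folds of genes below 1 CPM, as Car2, Car3 and Car4 mostly were in endocardial libraries. A gene ranked close to one of them can therefore have a much smaller fold change. Pcdh17, ranked closest to Car4, had 17.4 and 332 CPM in E17 endocardial and coronary libraries, beside 0.0921 and 30.3 CPM for Car4. For Aqp1 the closest were Adam23 (0.20), Rab11fip5 (0.21), Pdgfb (0.22), Cyb561 (0.26) and Pik3cb (0.30), against a median of 1.67 over all genes. For Car4 they were Pcdh17 (0.31), Efr3b (0.35), Adgrg1 (0.36), Nr5a2 (0.36) and Ebf3 (0.37), with a median of 1.63. For Car2 they were Cacnb3 (0.24), Tril (0.27), Heyl (0.27), Tox3 (0.28) and Snai2 (0.30), with a median of 0.98.

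Gpc1 (0.34), Erbb3 (0.35), Serinc2 (0.35), Col2a1 (0.40) and Col9a3 (0.43) were closest to Car3, with a median of 2.16 over all genes. Erbb3, a receptor gene known from neural crest and glia, had 6.76, 19.6, 27 and 18.6 CPM in E13 coronary replicates 1 to 4 and at most 0.357 CPM in any other library, and Col2a1 and Col9a3 encode cartilage collagens. Among the 4 genes themselves, Car4 and Aqp1 were closest to each other (0.92) and Car3 and Car4 farthest apart (2.33). Over the 8 E13 libraries alone, 1 of the 5 genes was shared for Car2 and for Aqp1 and 0 for Car3 and for Car4. The genes closest to Car3 were then Tagln (0.19), Prrx1 (0.21), Clmp (0.23), Col12a1 (0.24) and Mfap4 (0.25). Tagln is on the mural list and Mfap4 on the fibroblast list read above.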

How the data were processed

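The authors deposited expected counts per gene, of which 18.3% are not whole. The submitters' processing notes name RSEM 1.2.3, cutadapt 1.3, CASAVA 1.8.2 and the build GRCm38. No settings are given there. Reads that fit several genes are shared by estimate, and the kit named in the labels does not mark strand. Symbols came from a GENCODE M21 table (40254 of 41214 genes). No gene of the table overlapped the 4 loci.

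Counts were rounded. Genes were kept by filterByExpr (minimum count 10, total 15). Tests were quasi-likelihood tests of edgeR 4.0.16 (R 4.3.3) with TMM, in 1 fit of 4 group means over 12 libraries (8 residual degrees of freedom), with Benjamini-Hochberg adjustment over 15171 genes and a threshold of 0.05. Log2 fold changes are given ± SE (their size over the root of the F statistic) and CPM as mean ± SD. Pooled ratios use unscaled totals with 95% exact intervals, which for every gene cover counting error only and not the spread between libraries. DESeq2 1.42.0, other scalings, filters, a batch block and leaving out each library were alternatives. On counts simulated for the E13 comparison on 14753 genes, 77% of genes changed 2-fold and 97% of those changed 4-fold were recovered, with 7 false calls. Only 100 genes per size were changed, all with a mean of at least 1 CPM, and libraries were drawn independently. Lower genes, libraries paired by batch and the E17 groups of 2 libraries were not covered.

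The genes and lists were chosen with earlier results of these data known. In each comparison, list genes at 10 CPM or more were named first, by fold. Between replicates the chi-square per gene was 4.39 to 39.3, above counting noise. Each batch in the labels holds 1 library of each population, and in 9481 genes the correlation of such pairs, after removing group means, was 0.387 to 0.691.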

Additional observations from a re-analysis of the deposited data

Results flagged for a closer look

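The change between stages of the coronary minus endocardial difference was read for 23 genes, 13 of which passed edgeR's test of it. Car4 and the transporters Slc26a10, Slc9a5, Emb, Slc4a4, Slc16a3 and Slc16a1 had been chosen or named for their fold changes in these libraries, so their values are a description and the 13 supports nothing. Over the whole lists of transport genes without the 4 genes, 5 of 37 moved towards coronary and 15 towards endocardial libraries, beside 16.2% and 16.5% of all genes tested. The difference moved towards coronary libraries at E17 in Aqp7 (8.49), Car4 (5.67), Slc26a10 (2.63) and Slc9a5 (1.41), on the log2 scale. It moved towards endocardial libraries in Aqp8 (-2.81), Emb (-2.75), Car14 (-2.59), Slc4a4 (-2.49), Car12 (-2.30), Slc16a3 (-1.65), Car5b (-1.61), Car13 (-1.09) and Slc16a1 (-0.53). The calls of Car5b, Car12, Car13 and Slc16a1 were lost without E17 endocardial replicate 2 (edgeR adjusted p = 0.0825, 0.0654, 0.0677 and 0.066) and without E17 coronary replicate 2 (0.0841, 0.0734, 0.0731 and 0.126), and that of Slc16a1 also without E17 endocardial replicate 1 (0.0721).

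In 2 of 46 groups of 4 libraries, 1 library stood apart from the other 3, and chance gives about 1 in 20. E13 endocardial replicate 4 was low for Car14, at 0.416 CPM against 1.05 to 1.15 CPM, a gap of 0.860 of the group's range. The same library was low for Aqp8, at 3.27 CPM against 3.68 to 3.75 CPM, a gap of 0.864 of the range.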

How the results depend on the processing

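Of 1188 and 2280 values under other settings and with 1 library left out, 26 and 115 changed their call or moved a count by over 1.5 times, and none reversed a call. With DESeq2 and with the replicate block, which pairs libraries of a batch, the Car3 difference at E17 was 4.39 and 5.18 and passed. The block changed no other call of the 4 genes, and it lost Aqp11 at E17 (adjusted p = 0.122). The stage comparisons cannot hold it, since each batch has 1 stage. With library totals only, which moved the median gene by 0.111 at E13 and by -0.152 between stages in coronary libraries, the Aqp1 stage difference was -0.69 and passed.

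Leaving out 1 library gave -3.57 to -2.41 for Car4 and -1.66 to -0.84 for Car2 in endocardial libraries between stages, 4.87 to 5.44 for Car3 at E17, and -0.78 to -0.35 for the change of Aqp1. Genes past the threshold between endocardial stages numbered 2928 to 5211 beside 4830, lowest without either E17 endocardial library (2928 and 3178). Of the transport genes, 2 to 6 were higher and 2 to 5 lower there (3 higher with no filter on low counts), 10 to 17 were lower in coronary libraries at E17, and 7 to 16 had a difference lower at E17. With 2 libraries per E17 group, leaving out 1 leaves a lone library, which is assumed to vary like the other groups. The cause of these changes was not tested. Counts limit Car3 at E17 and Car4 in E17 endocardial libraries, at 7 counts or fewer.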
